A study of Mus musculus with 9 samples.

Results

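The genes described are those of peroxisome biogenesis and peroxisomal lipid oxidation in mouse brown adipose tissue (BAT). They are the 17 genes whose symbol begins with Pex and a digit, and 20 listed genes for enzymes and transporters of peroxisomal lipid metabolism. All 37 were found among the 16937 genes listed in the RNA sequencing data, and each was listed in every comparison. RNA was sequenced from the BAT of 9 mice on the C57Bl/6J background, 3 per group. WT RT mice were wild type and were held at 23 °C, WT Cold mice were wild type and spent 8 h at 4 °C, and GCN2 KO Cold mice had a whole body deletion of Gcn2 and spent the same 8 h at 4 °C. Per the study's methods, mice were adults of 12 to 23 wk and of both sexes that had been housed singly for 5 days. The labels do not give the sex of a library, and GCN2 KO mice at room temperature were not analysed here, so the effect of cold could not be compared between genotypes.

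Peroxisomes are single-membrane organelles that shorten very long-chain, branched-chain and dicarboxylic fatty acids, begin the synthesis of ether lipids, and break down the hydrogen peroxide that their oxidases release. Shortened acyl groups leave as free acids or carnitine esters and can be oxidized further in mitochondria. The organelle is built by peroxins, the proteins encoded by most Pex genes, which insert its membrane proteins, import its enzymes and divide it. Brown adipocytes are rich in peroxisomes and in mitochondria that produce heat through uncoupling protein 1 (UCP1), and their lipid oxidation rises when cold activates sympathetic nerves.

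The libraries held from 27058799 to 30768064 reads. Levels below are the recovered reads of each library scaled over all 9 libraries to a common size, always in the order of libraries A, B and C of a group, and the 3 libraries labelled GCN2 KO Cold are called KO-labelled. Eif2ak4, the gene for GCN2, had levels of 293, 333 and 368 in WT RT, 181, 238 and 245 in WT Cold, and 367, 396 and 369.8 in the KO-labelled libraries. It was thus not lower in the KO-labelled libraries than in WT Cold (log2 fold change 0.78, SE 0.15, adjusted p = 0.0932, limma), and the genotype label of these libraries is used as given. The title of 1 of the 3 samples in this group names both genotypes and no temperature, and that sample was placed by its genotype and temperature labels. The reads were summed over exons, so a deletion within the gene could not be seen. All 8 brown adipocyte markers, Ucp1 among them, were detected in every library, and their summed level was 510244 to 583523 in WT RT, 727461 to 770927 in WT Cold and 922094 to 950220 in the KO-labelled libraries. Against WT RT, 4 of the 8 were higher and 1 lower in WT Cold, and 6 were higher in the KO-labelled libraries. The 12 skeletal muscle markers were detected in every library too, with sums of 68926 to 76392, 63726 to 100627 and 9671 to 40208 in the same order, and against WT RT 2 were higher in WT Cold and 11 lower in the KO-labelled libraries. The 5 red blood cell markers were all higher in both cold groups than in WT RT, with sums of 6860.0 to 9355, 16818 to 65322 and 33902 to 64235. Of the 6 macrophage markers, 4 were lower in WT Cold and 6 in the KO-labelled libraries, with sums of 9488 to 13340, 4886 to 7472 and 3983 to 6042. The 5 endothelial markers had sums of 13140.0 to 15572, 17161 to 20213 and 14553 to 17959, with 2 higher in WT Cold. A fit with the muscle markers as a covariate is given with the counts below, and the part of the other markers named here in the members' values was not tested. In bulk tissue, fewer cells of a type and less RNA per cell cannot be told apart. WT RT libraries carry codes with a different prefix from those of both cold groups, so the set of libraries and the cold cannot be told apart.

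Per kilobase of exon, the level of member genes spanned a wide range (the plot of levels per kilobase). Ech1, which moves double bonds of unsaturated acyl-CoA, was the highest, with 13267 ± 924 per kilobase (SD, n = 3) in WT RT. Scp2, a sterol carrier and thiolase, had 8640.0 ± 355 (SD, n = 3), and Cat, which encodes catalase, had 8479 ± 607 (SD, n = 3), so these neighbours did not differ beyond their spread. Among the peroxins, Pex19, Pex16 and Pex13 had the highest levels per kilobase, at 1659 ± 86.7, 1518 ± 79.7 and 1003 ± 59.9 (SD, n = 3). Pex5l, a relative of the import receptor known best from neurons, was the lowest, with 1.79 ± 0.457 (SD, n = 3) and 194 reads over all 9 libraries.

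**Figure D1:**
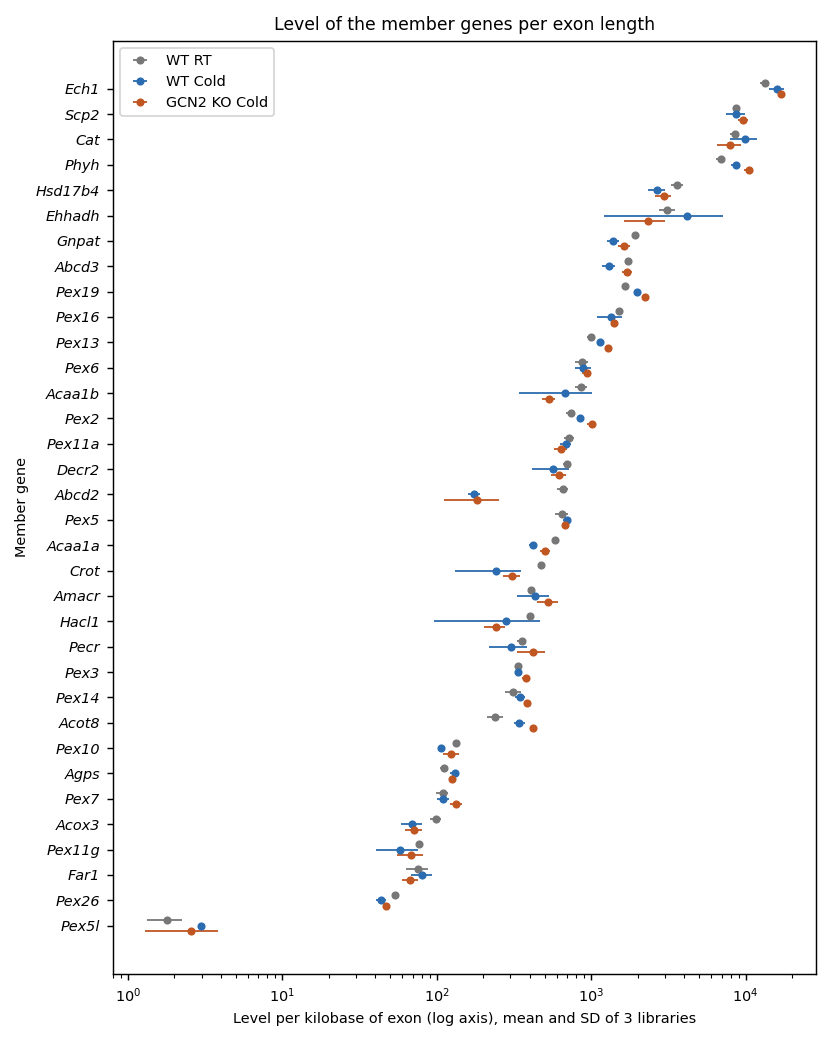
Mean level per kilobase of exon on a log axis for 34 member genes, ordered by WT RT, with bars for the SD of 3 libraries per group. Ech1, Scp2, Cat and Phyh lie at the top in every group, Pex5l at the bottom, and Abcd2 shows the widest gap between WT RT and both cold groups.

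Fold changes were tested within each table of 2 groups with limma on log2(normalized count + 1), a scale that understates the change of low genes, and p-values were adjusted over all genes by the Benjamini-Hochberg method. A gene is said to rise or fall at an adjusted p under 0.05. In WT Cold against WT RT, 3 of the 37 members rose and 9 fell, or 8.11% and 24.3% of them. Of all 16679 genes, 13.6% rose and 14.1% fell. The median log2 fold change of the members was -0.0092, against 0.0029 for all genes. Abcd2 and Crot also passed an absolute log2 fold change of 1, as did 8.14% of all genes. The WT Cold and WT RT libraries did not overlap in 17 members, 7 higher and 10 lower in the cold, beside 45.5% of all genes. Abcd2, Abcd3, Acaa1a and Gnpat were called in each of the 6 fits that left out a library, while Acot8, Phyh, Pex19, Crot, Acox3, Hsd17b4 and Pex10 were among those that lost the call in at least 1 of them. With the skeletal muscle markers as a covariate, Acot8, Phyh, Pex19, Acox3, Hsd17b4 and Pex10 lost their call, with log2 fold changes of 0.45 for Acot8, 0.24 for Phyh and 0.25 for Pex19. Ehhadh, not called without the covariate, was then the 1 member that rose (log2 fold change 0.93, adjusted p = 0.03, limma), and 5 fell (Abcd2, Abcd3, Acaa1a, Crot and Gnpat). Of all genes, 10.2% rose and 10.3% fell in that fit.

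In the KO-labelled libraries against WT RT, 8 members rose and 6 fell, where 16.4% of all 16560 genes rose and 17.8% fell. The median was -0.035, against 0.0091 for all genes. Abcd2 alone of the members passed a log2 fold change of 1, which 10.6% of all genes did. The libraries did not overlap in 21 members, 11 higher and 10 lower, beside 49.2% of all genes. Acot8, Phyh, Pex2, Pex13, Pex19, Abcd2, Acaa1b, Crot and Hacl1 were called in each of the 6 fits that left out a library. With the skeletal muscle markers as a covariate, none rose and Abcd2, Acaa1b and Crot fell, while the shares of all genes were 3.33% and 2.54%. The summed muscle markers did not overlap between the KO-labelled libraries and WT RT. The fit therefore cannot fully separate this covariate from the group, and lost calls do not show what part muscle RNA had. The 8 members that rose without it then had log2 fold changes of 0.22 for Pex14 to 0.79 for Acot8, against 0.30 and 0.82 without it. Of those that fell, Abcd2 had -0.88, Acaa1b -0.85 and Crot -0.88, while Hacl1 had -0.71 (adjusted p = 0.0807, limma). With the hepatocyte markers described below as a covariate, 5 rose and 7 fell, beside 12.2% and 13% of all genes, and Ehhadh was among those that fell, at -0.81 (adjusted p = 0.00343, limma). Amacr, Ech1 and Pex14 lost their call in that fit, with 0.27 for Amacr and 0.32 for Ech1 (adjusted p = 0.144 and 0.0686, limma). Scaling by total reads instead of by the median of ratios lowered the median of all genes by 0.20 on the log2 scale in this comparison, and then 4 members (Acot8, Pex19, Pex2 and Phyh) rose and 15 fell, beside 8.97% and 29.1% of all genes. No called member changed direction under that scaling. Both cold groups were compared with the same WT RT libraries, so these counts are not independent of each other.

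**Figure D2:**
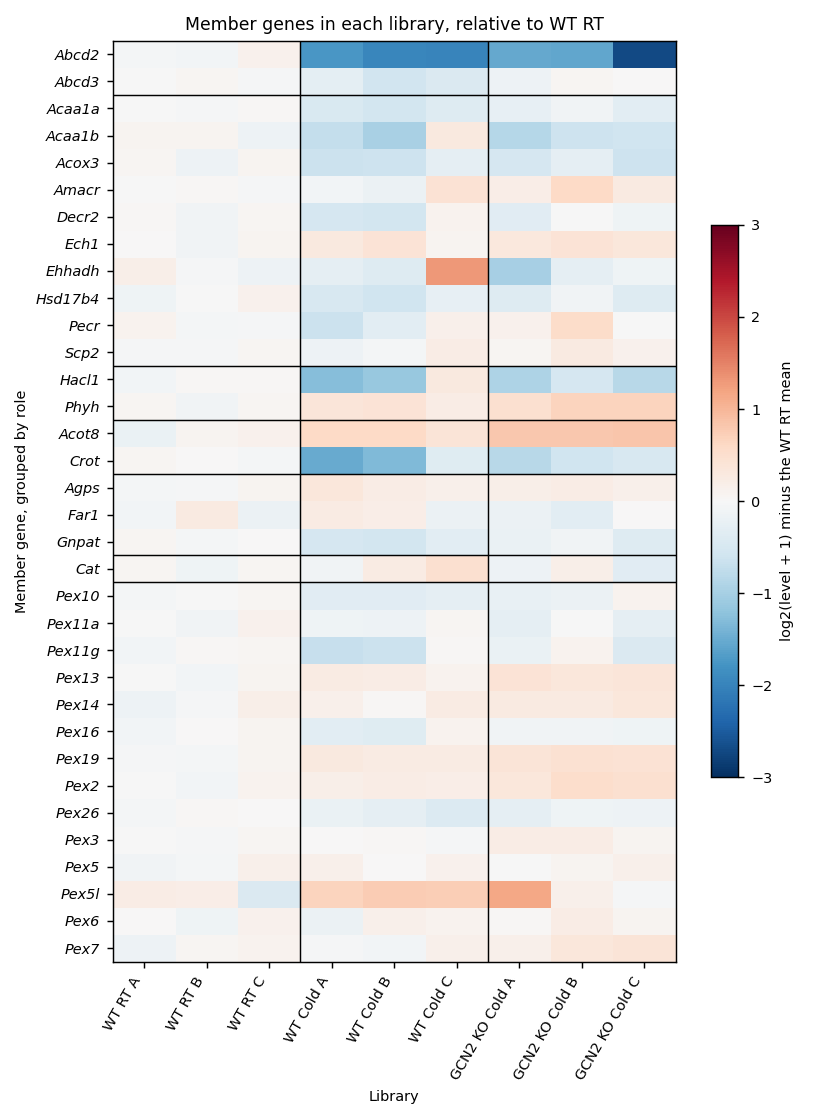
log2(level + 1) in each of the 9 libraries minus its mean in WT RT, for 34 members with genes in rows grouped by role and libraries in columns. Abcd2 is low in all 6 cold libraries, while Ehhadh, Hacl1, Acaa1b and Crot are higher in WT Cold library C than in WT Cold A and B.

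The transporters for fatty acyl-CoA gave the largest fall. Abcd2, an ABC transporter that brings very long-chain and polyunsaturated acyl-CoA into the peroxisome, had levels of 3707, 3689.8 and 4268 in WT RT, 1148, 1002 and 978 in WT Cold, and 1338, 1317 and 595 in the KO-labelled libraries. Every cold library lay below every WT RT library, and KO-labelled library C was the lowest of all 9. The fall was 3.74-fold in WT Cold (log2 fold change -1.90, SE 0.10, adjusted p = 5.25e-05, limma) and 3.82-fold in the KO-labelled libraries (log2 fold change -1.93, SE 0.28, adjusted p = 0.00157, limma). With the muscle covariate the latter value was -0.88 (adjusted p = 0.0285, limma), in the fit that cannot fully separate covariate and group. The gene lies on GRCm38 at chr15:91145871-91191799, by GENCODE M21, from which the positions below are also taken.

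Abcd3 encodes PMP70, an abundant peroxisomal membrane protein that carries branched-chain and dicarboxylic acyl-CoA. Its levels were 11364, 11858 and 11213 in WT RT, 9437, 7742 and 8455 in WT Cold, and 10262, 11936 and 11496 in the KO-labelled libraries. WT Cold libraries were the lowest, and those of the KO-labelled libraries overlapped with WT RT. Abcd3 fell in WT Cold (log2 fold change -0.43, SE 0.086, adjusted p = 0.00916, limma). The KO-labelled libraries differed from WT RT by -0.035 on the log2 scale (adjusted p = 0.762, limma).

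**Figure D3:**
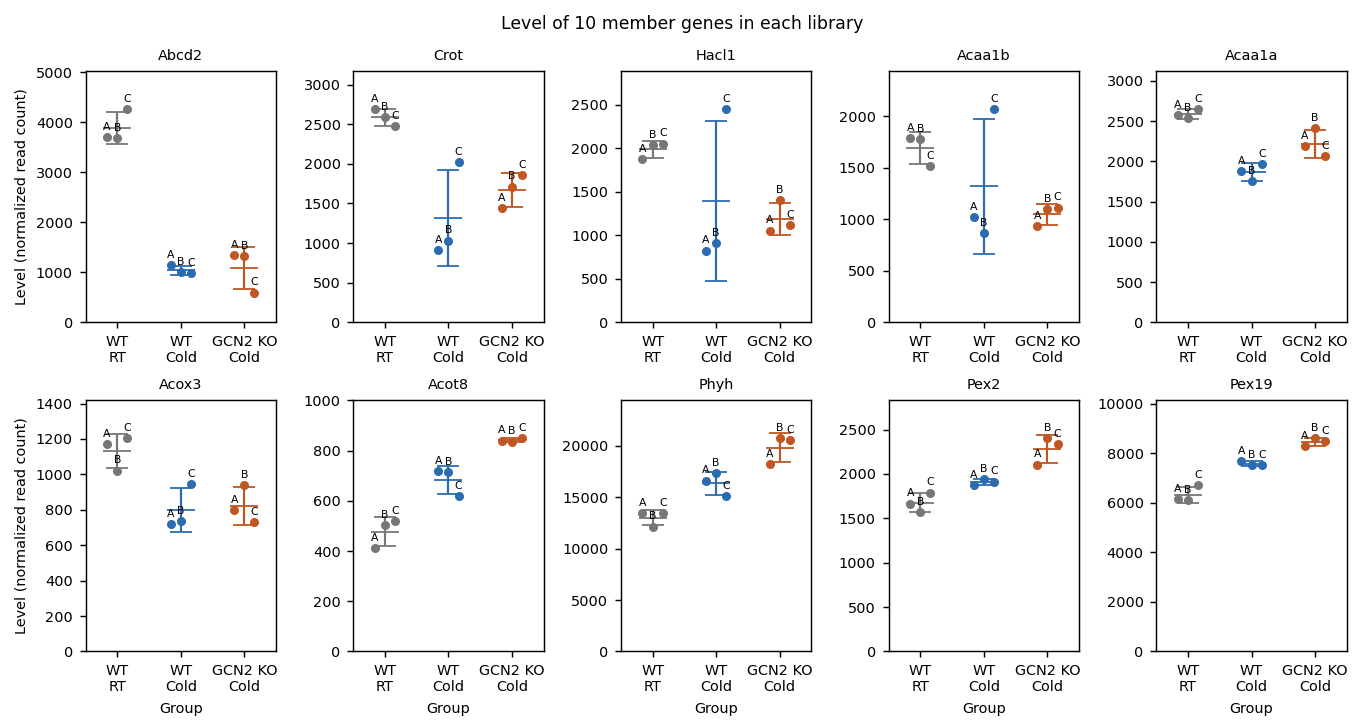
Level of 10 members in each library on a linear axis from 0, with letters for libraries and the mean and SD of each group of 3. Abcd2 is at 1338 or below in every cold library against 3689.8 or more in WT RT, and Acot8, Phyh, Pex2 and Pex19 are higher in the KO-labelled libraries than in WT RT.

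Of the 10 beta-oxidation enzymes, 3 fell in WT Cold and none rose, where 14.1% of all genes fell and 13.6% rose. In the KO-labelled libraries 2 fell and 2 rose against WT RT, beside 17.8% and 16.4% of all genes. Acox3, an oxidase of branched-chain acyl-CoA, had levels of 1172, 1022 and 1204 in WT RT, 719, 734 and 944 in WT Cold, and 800.4, 940.1 and 730.3 in the KO-labelled libraries. Both cold groups lay below WT RT, by 1.43-fold in WT Cold (log2 fold change -0.51, SE 0.13, adjusted p = 0.022, limma) and 1.38-fold in the KO-labelled libraries (log2 fold change -0.46, SE 0.12, adjusted p = 0.0165, limma). Acaa1a and Acaa1b encode the thiolase that releases acetyl-CoA at the end of each round. Acaa1a had levels of 2573, 2536 and 2649.9 in WT RT, 1881, 1751 and 1966 in WT Cold, and 2190.2, 2408 and 2063 in the KO-labelled libraries. It fell in WT Cold (log2 fold change -0.47, SE 0.074, adjusted p = 0.00354, limma), and its value in the KO-labelled libraries against WT RT was -0.22 (adjusted p = 0.0614, limma). Acaa1b had levels of 1785, 1781 and 1516 in WT RT, 1024, 866 and 2071 in WT Cold, and 931, 1099.9 and 1114 in the KO-labelled libraries. WT Cold library C was the highest of all 9 and WT Cold B the lowest. Acaa1b fell in the KO-labelled libraries against WT RT (log2 fold change -0.69, SE 0.11, adjusted p = 0.00191, limma), and in WT Cold its log2 fold change was -0.47 (adjusted p = 0.267, limma). The coding sequences of these paralogs are nearly the same, so reads can be split between them, and their separate values are uncertain.

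The middle steps are shared by a D and an L branch. Hsd17b4, the D-bifunctional protein that serves branched and very long chains, had levels of 11192, 12134 and 13416 in WT RT, 8821, 8108 and 10261 in WT Cold, and 9304, 11359 and 9395 in the KO-labelled libraries. It fell in WT Cold (log2 fold change -0.44, SE 0.11, adjusted p = 0.0205, limma), while in the KO-labelled libraries it was -0.29 against WT RT (adjusted p = 0.0622, limma). Ehhadh, the L-bifunctional protein that serves dicarboxylic acids, had levels of 10456, 9028 and 8344 in WT RT, 7648, 7120.4 and 22731 in WT Cold, and 4594, 7679 and 8445 in the KO-labelled libraries. Library C of WT Cold was the highest of all and its group spread widely. With all libraries, no covariate and the main scaling, Ehhadh passed the test in no comparison (0.21, adjusted p = 0.721 in WT Cold against WT RT, limma). Scaled by total reads and fitted without WT Cold, Ehhadh fell in the KO-labelled libraries against WT RT. Ech1 and Amacr, the racemase for branched chains, both rose in the KO-labelled libraries against WT RT (0.36, adjusted p = 0.015 and 0.36, adjusted p = 0.036, limma). Ech1 had levels of 30628, 28048 and 32231 in WT RT, 37289, 40304 and 32002 in WT Cold, and 37861, 40205 and 38396 in the KO-labelled libraries, so the 5 highest of the 9 libraries were all from the cold. Amacr had levels of 1060.2, 1089 and 1043 in WT RT, 1012, 939 and 1427 in WT Cold, and 1225, 1611 and 1292 in the KO-labelled libraries, with KO-labelled B the highest library. The reductases Decr2 and Pecr, which handle unsaturated chains, and Scp2 passed the test in no comparison, with log2 fold changes from -0.32 to 0.49. Without WT Cold C, Decr2 and Pecr fell in WT Cold against WT RT (-0.53, adjusted p = 0.00298 and -0.49, adjusted p = 0.0259, limma). Over the 9 libraries levels ran from 1257 to 1969 for Decr2, from 342 to 785 for Pecr and from 26826 to 36169 for Scp2.

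Alpha-oxidation removes one carbon from phytanic acid and other branched chains before beta-oxidation can begin. In the KO-labelled libraries its first enzyme rose and the next one fell against WT RT. Phyh, the hydroxylase that starts the pathway, had levels of 13488, 12129 and 13443 in WT RT, 16618, 17341 and 15139.6 in WT Cold, and 18191, 20734 and 20561 in the KO-labelled libraries. The 3 groups did not overlap, and Phyh rose 1.25-fold in WT Cold (log2 fold change 0.33, SE 0.083, adjusted p = 0.0232, limma) and 1.52-fold in the KO-labelled libraries (log2 fold change 0.60, SE 0.087, adjusted p = 0.00152, limma). Hacl1, the lyase that follows, had levels of 1878, 2037 and 2051 in WT RT, 824, 905 and 2449 in WT Cold, and 1052, 1401 and 1115 in the KO-labelled libraries. Every KO-labelled library lay below every WT RT library, and Hacl1 fell 1.68-fold (log2 fold change -0.75, SE 0.11, adjusted p = 0.00189, limma). In WT Cold, A and B were the lowest of all 9 libraries and C was the highest, and the log2 fold change of -0.70 had an adjusted p of 0.192 (limma). Phyh lies at chr2:4919019-4938730 and Hacl1 at chr14:31598730-31641286. In GENCODE M21, 33.3% of the exon bases of Hacl1 are shared with Btd or Gm49387, and the strand setting of the count is not given in the sources used here.

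Acot8 and Crot end the shortening of a chain. Acot8, a thioesterase that frees fatty acids from CoA, had levels of 411, 502 and 519.6 in WT RT, 719, 714 and 619 in WT Cold, and 839, 836 and 849 in the KO-labelled libraries. The 3 groups did not overlap and the KO-labelled libraries were the highest. Acot8 rose 1.43-fold in WT Cold (log2 fold change 0.52, SE 0.12, adjusted p = 0.0171, limma) and 1.77-fold in the KO-labelled libraries (log2 fold change 0.82, SE 0.11, adjusted p = 0.00115, limma), the largest rise among the members in the latter. It lies at chr2:164792765-164804882, and 12.3% of its exon bases are shared with Snx21. Crot, which makes carnitine esters of medium chains for export to mitochondria, had levels of 2693, 2588 and 2476 in WT RT, 910.1, 1032 and 2018 in WT Cold, and 1442, 1714 and 1854 in the KO-labelled libraries. All cold libraries lay below all WT RT libraries, with WT Cold A and B the lowest. Crot fell 2.09-fold in WT Cold (log2 fold change -1.06, SE 0.27, adjusted p = 0.0216, limma) and 1.56-fold in the KO-labelled libraries (log2 fold change -0.64, SE 0.10, adjusted p = 0.00231, limma). With the muscle covariate its value in WT Cold was -0.57 (adjusted p = 0.0185, limma). It lies at chr5:8966033-8997324.

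**Figure D4:**
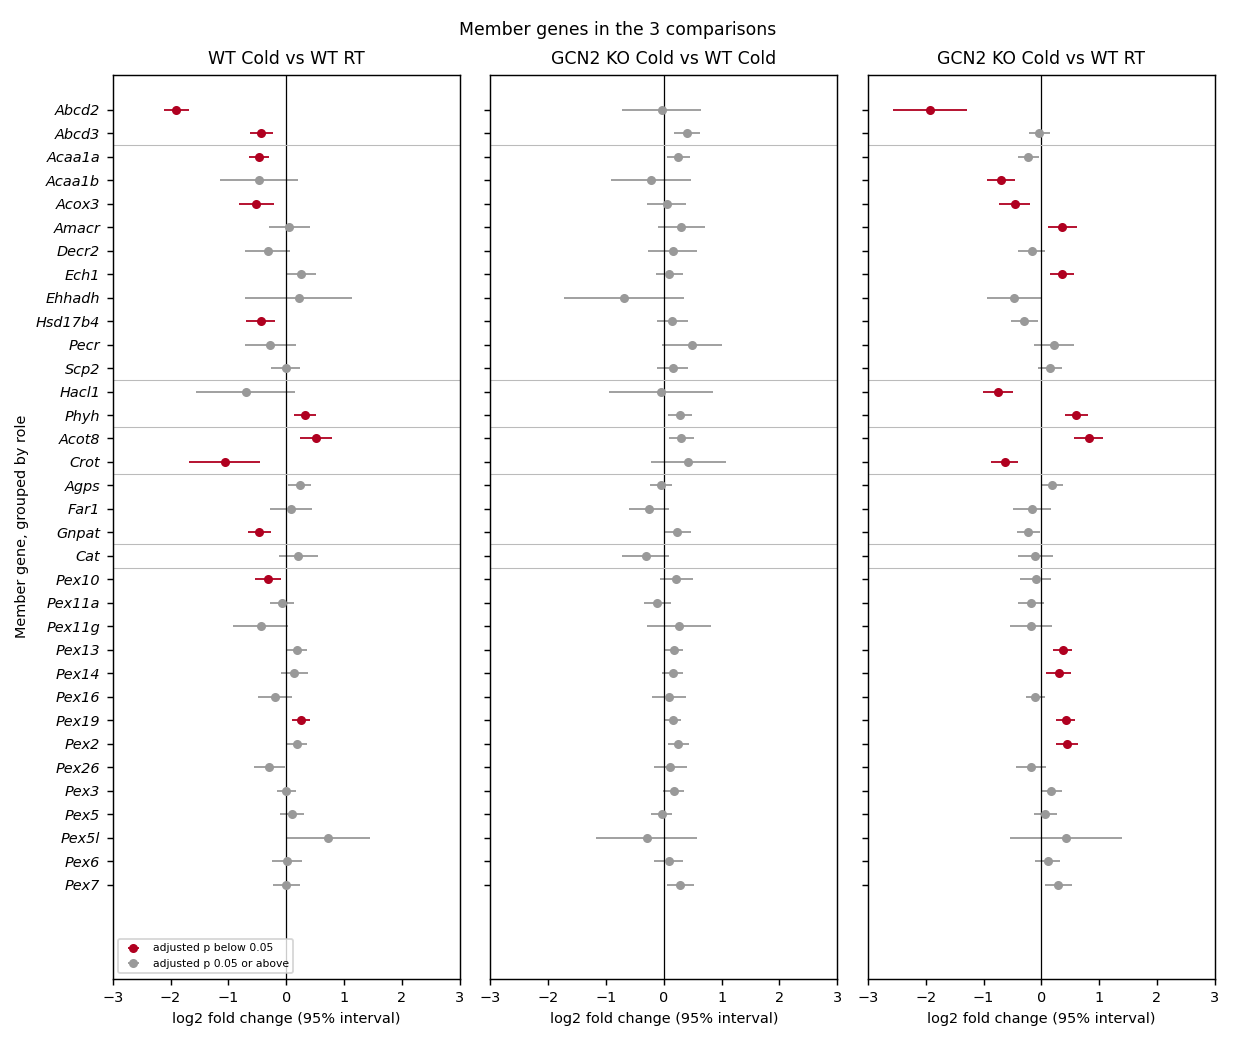
log2 fold change of 34 members with 95% intervals in the 3 comparisons, with genes in rows grouped by role, red for an adjusted p below 0.05 and grey otherwise. The middle panel, the KO-labelled libraries against WT Cold, has no red point, and 24 of its 34 points lie above 0.

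Of the ether lipid enzymes, Gnpat fell in WT Cold. It attaches an acyl chain to dihydroxyacetone phosphate in the first step. Its levels were 7084, 6572 and 6886 in WT RT, 4803, 4653 and 5499 in WT Cold, and 5992, 6375 and 5264 in the KO-labelled libraries, with WT Cold the lowest group (log2 fold change -0.46, SE 0.084, adjusted p = 0.00632, limma). The value for Gnpat in the KO-labelled libraries against WT RT was -0.23 on the log2 scale (adjusted p = 0.0807, limma). Agps, which makes the ether bond, and Far1, which supplies the fatty alcohol, passed the test in no comparison (0.23, adjusted p = 0.0789 and 0.091, adjusted p = 0.698 in WT Cold against WT RT, limma). Their levels ran from 1000.1 to 1316 and from 483 to 725 over the 9 libraries. Cat did not pass either. Its levels were 23061, 20324 and 23082 in WT RT, 20651, 26137 and 30943 in WT Cold, and 19811, 24948 and 17534 in the KO-labelled libraries, with WT Cold C the highest library, and its log2 fold changes ran from -0.32 to 0.21 over the 3 comparisons.

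Of the 17 Pex genes, 1 rose and 2 fell in WT Cold, beside 13.6% and 14.1% of all genes. In the KO-labelled libraries against WT RT, 4 rose and 1 fell, beside 16.4% and 17.8% of all genes. Pex19, Pex3 and Pex16 encode the proteins that bring peroxisomal membrane proteins to the organelle. Pex19, their soluble carrier, had levels of 6171, 6104 and 6707 in WT RT, 7699, 7524 and 7527 in WT Cold, and 8311, 8618 and 8500.4 in the KO-labelled libraries. The 3 groups did not overlap, and Pex19 rose 1.2-fold in WT Cold (log2 fold change 0.26, SE 0.068, adjusted p = 0.0256, limma) and 1.34-fold in the KO-labelled libraries (log2 fold change 0.42, SE 0.07, adjusted p = 0.00281, limma). Pex3 and Pex16 passed the test in no comparison, with log2 fold changes of 0.17 and -0.11 in the KO-labelled libraries against WT RT.

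The import machinery consists of the receptors Pex5 and Pex7, the docking proteins Pex13 and Pex14, and a ubiquitin ligase that includes Pex2 and Pex10. Pex2 had levels of 1667, 1573 and 1789.8 in WT RT, 1876, 1942 and 1913 in WT Cold, and 2106, 2403 and 2333 in the KO-labelled libraries. It rose in the KO-labelled libraries against WT RT (log2 fold change 0.44, SE 0.086, adjusted p = 0.00536, limma), and WT Cold lay between without overlap (0.19, adjusted p = 0.106, limma). Pex13 had levels of 4613, 4404 and 4955 in WT RT, 5539, 5397 and 5015 in WT Cold, and 6192, 5864 and 5948 in the KO-labelled libraries, also without overlap between the groups, and it rose in the KO-labelled libraries against WT RT (log2 fold change 0.37, SE 0.073, adjusted p = 0.00621, limma). Pex14 rose there too, from 1763, 1918 and 2218 in WT RT to 2373, 2354 and 2496 (0.30, adjusted p = 0.0413, limma), a call that edgeR did not make (adjusted p = 0.0556). Pex10 fell in WT Cold, from 421, 433 and 457 to 342, 348 and 363 (-0.32, adjusted p = 0.0463, limma), and DESeq2 did not call it (adjusted p = 0.0576). Pex5 and Pex7 passed the test in no comparison, and the value of Pex7 in the KO-labelled libraries against WT RT was 0.29 (adjusted p = 0.0533, limma). Over the 9 libraries, levels ran from 2371 to 2852 for Pex5 and from 1185 to 1729.9 for Pex7.

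Pex6 is an ATPase that helps to pull the receptor back out of the membrane, where Pex26 anchors it. Pex6 and Pex26 passed the test in no comparison, with levels from 2909 to 3817 and from 228 to 312. The division factors Pex11a and Pex11g did not pass it either, with log2 fold changes in WT Cold of -0.073 and -0.44. Pex11a, the more abundant of them per kilobase, had levels from 1902 to 2479, and Pex11g had 246, 265 and 269 in WT RT, 160.1, 165 and 266 in WT Cold, and 227, 278 and 192 in the KO-labelled libraries, with WT Cold A and B the lowest libraries. Without WT Cold C, Pex11g fell in WT Cold against WT RT. In the annotation, 41.1% of the exon bases of Pex11g are shared with Gm44775 and 28.3% of those of Pex14 with Gm17029. Pex5l was too low for a precise value, with a log2 fold change in WT Cold of 0.73 and an SE of 0.31.

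Promoters were read because cold raises cAMP in brown adipocytes through noradrenaline, and cAMP acts on genes with a cAMP response element (CRE). RefSeq promoters of GRCm38.p6, from 250 bases before to 50 after the start, were given for 28 of the 37 members. Members were counted by gene and the share of all promoters by promoter, so these values are not on the same basis. The letters TGACGTCA, which read the same on both strands, were found in 2 of the 28, and in 1.79% of all 32851 promoters. The letters AGGTCANAGGTCA, the direct repeat bound by peroxisome proliferator-activated receptors, were found on neither strand in any of the 28, and in 0.0396% of all promoters. The 60 bases around each CRE match, 5′ to 3′ on the minus strand and with the match in capitals, are at chr11:23665933-23665992 and chr8:3467619-3467678.
Pex13: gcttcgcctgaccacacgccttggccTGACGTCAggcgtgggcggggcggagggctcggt
Pex11g: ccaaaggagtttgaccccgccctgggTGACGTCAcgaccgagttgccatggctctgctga
Pex13 rose in the KO-labelled libraries against WT RT, as given above, but was not called in WT Cold against WT RT. Pex11g passed the test in no comparison with all libraries, and fell in WT Cold against WT RT without WT Cold C. A match is a description of the letters and not of binding.

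The comparison of the KO-labelled libraries with WT Cold asks what the genotype changed in the cold. None of the 37 members passed the adjusted p of 0.05 with limma or with edgeR, and 1 did with DESeq2. Of all 16312 genes, 236 rose and 300 fell with DESeq2, and 18 rose and 26 fell with edgeR. With limma 0.178% of all 16312 genes rose, 0.227% fell, and 0.257% also passed a log2 fold change of 1. At an unadjusted p under 0.05 there were 9 members, 24.3% of them, beside 15.3% of all genes. The median log2 fold change was 0.15, with 27 members above 0, against -0.0031 for all genes. With scaling by total reads, which lowered the median of all genes by 0.12, the median of the members was 0.029 and 20 were above 0. Without KO-labelled library B the median was 0.086, and with the hepatocyte markers as a covariate it was 0.085, each with 26 above 0. With the muscle markers as a covariate the median was 0.049, with 24 above 0. The libraries did not overlap in 10 members, all of them higher in the KO-labelled libraries, beside 22% of all genes in either direction.

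Abcd3 was the member that DESeq2 called. It was 1.32-fold higher in the KO-labelled libraries than in WT Cold (log2 fold change 0.40, SE 0.10, adjusted p = 0.142, limma), with an adjusted p of 0.0385 from DESeq2 and 0.147 from edgeR. Acot8, Phyh, Pex2 and Pex19 had log2 fold changes of 0.30, 0.28, 0.25 and 0.16, all with adjusted p-values from limma of 0.192 to 0.276. In the same libraries the summed brown adipocyte markers were higher and the summed muscle markers lower than in WT Cold, as given above. Singly, 0 of the 8 brown adipocyte markers passed the test in that comparison, and 1 of the 12 muscle markers did, as lower. With the muscle markers as a covariate the values were 0.32 for Abcd3, 0.34 for Acot8, 0.21 for Phyh, 0.16 for Pex2 and 0.15 for Pex19, with adjusted p-values from limma of 0.673 to 0.801. The muscle sums did not overlap between the KO-labelled libraries and WT Cold either, so this fit cannot fully separate covariate and group. For Abcd2 the log2 fold change was -0.033 (95% interval -0.72 to 0.65), an interval wide enough to hold a change of 1.5-fold in either direction.

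One WT Cold library stood apart in several members. Of the 36 members with a mean level of at least 50, 7 were over 1.5-fold higher in WT Cold C than in the geometric mean of A and B, and none was as much lower. Over all 12895 such genes, 7.54% were as much higher and 5.27% as much lower. The 7 were Ehhadh, Hacl1, Acaa1b, Crot, Pex11g, Pecr and Decr2, at 3.08, 2.83, 2.20, 2.08, 1.63, 1.55 and 1.55-fold. Within WT Cold, the same library held the highest level of 5 of the 6 hepatocyte markers and of 5 of the 6 macrophage markers, and its summed skeletal muscle markers were the lowest of the group (63726, against 100627 and 93544 in A and B). Alb, the gene for albumin, had levels of 63161, 47151 and 55033 in WT RT, 23619, 42606 and 115181 in WT Cold, and 39165, 78044 and 86336 in the KO-labelled libraries. The 6 markers were detected in all 9 libraries, with sums of 77141 to 105565 in WT RT, 55100 to 185065 in WT Cold and 83328 to 147562 in the KO-labelled libraries.

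**Figure D5:**
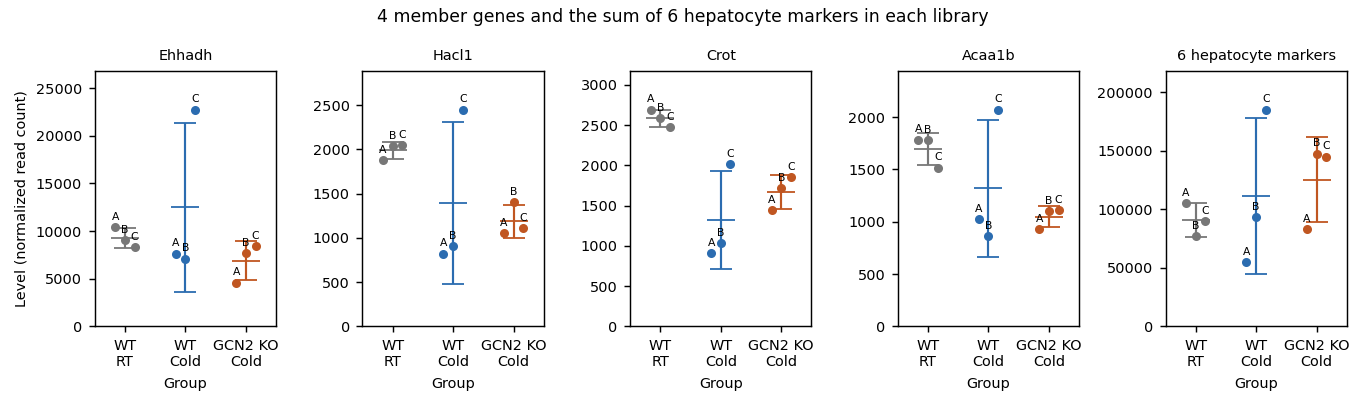
Level of Ehhadh, Hacl1, Crot and Acaa1b, and the sum of 6 hepatocyte markers, in each library on linear axes from 0, with the mean and SD of each group of 3. WT Cold C is the highest WT Cold library in all 5 panels, and KO-labelled A is the lowest KO-labelled library in all 5.

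In KO-labelled A, B and C the hepatocyte marker sums were 83328, 147562 and 145002. Of the members over 1.5-fold higher in WT Cold C, Ehhadh, Crot, Acaa1b, Hacl1 and Decr2 were lowest in KO-labelled A. Pecr and Pex11g were lowest in KO-labelled C, at 529 and 192. Crot, Acaa1b and Hacl1 were lower in all 3 KO-labelled libraries than in every WT RT library. With the marker level as a covariate, the log2 fold change of Hacl1 in WT Cold against WT RT was -0.66 (adjusted p = 0.0231, limma), that of Crot was -1.03 (adjusted p = 0.000505, limma) and that of Acaa1b was -0.44 (adjusted p = 0.113, limma). Without WT Cold C, 5 members rose and 16 fell in WT Cold against WT RT, beside 16.2% and 17.8% of all genes, and the median was -0.14. Newly called were Agps and Ech1, higher, and Acaa1b, Decr2, Ehhadh, Hacl1, Pecr, Pex11g and Pex16, lower. Hacl1 then had -1.21 (adjusted p = 0.000125), Crot -1.42 (adjusted p = 7.21e-05), Acaa1b -0.85 (adjusted p = 0.00141) and Ehhadh -0.33 (adjusted p = 0.0476), all from limma, so the value of Ehhadh lay below 0 here and above 0 with the muscle covariate, each past the threshold. WT Cold C and KO-labelled C also had 206 and 327 of Ddx3y, a Y-linked gene, against 2381 or more in each of the other 7 libraries. All 3 WT RT libraries were among the 7, so WT RT and the cold groups were not balanced for this gene. The part of this difference in the members' values was not tested, and without both libraries C the median of the members between the KO-labelled libraries and WT Cold was 0.20, with 30 of the 37 above 0.

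Other genes of the organelle were read from a list of 40, of which 39 were listed in every comparison. In WT Cold against WT RT, 12 rose and 3 fell, beside 13.6% and 14.1% of all genes, and in the KO-labelled libraries against WT RT 16 rose and 3 fell, beside 16.4% and 17.8%. The acyl-CoA thioesterases Acot4, Acot5 and Acot6, near copies of each other on 1 chromosome whose reads can be split, rose in WT Cold by 1.06, 4.40 and 1.16 on the log2 scale (adjusted p = 0.00469, 6.6e-05 and 0.00222, limma). Acot5 had levels of 13, 21.4 and 16.7 in WT RT, 408, 396 and 319.6 in WT Cold, and 303, 280.4 and 267 in the KO-labelled libraries. Slc25a17, which exchanges CoA and other nucleotides across the peroxisomal membrane, had levels of 2766, 2751 and 3203 in WT RT, 8423, 7537 and 6312 in WT Cold, and 8901, 8852 and 9880.1 in the KO-labelled libraries, and it rose 2.54-fold in WT Cold (log2 fold change 1.34, SE 0.12, adjusted p = 0.000423, limma). The peroxisomal protease Lonp2 did not pass the test in WT Cold (-0.12, adjusted p = 0.469, limma).

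Of 8 regulators of these genes, 2 rose and 1 fell in each cold group against WT RT. The shares of all genes that rose and fell were 13.6% and 14.1% in WT Cold and 16.4% and 17.8% in the KO-labelled libraries. Ppara, the nuclear receptor that drives many genes of peroxisomal oxidation, had levels of 3330.0, 3254 and 3391 in WT RT, 2413, 2121 and 2521 in WT Cold, and 1411, 2008 and 2066 in the KO-labelled libraries. It fell in WT Cold (log2 fold change -0.51, SE 0.083, adjusted p = 0.00445, limma) and in the KO-labelled libraries (log2 fold change -0.88, SE 0.14, adjusted p = 0.00218, limma). Ppargc1a, a coactivator induced by cold, had levels of 939, 1149 and 1625 in WT RT, 11191, 6138 and 7061 in WT Cold, and 6987, 4945 and 16019.7 in the KO-labelled libraries and rose 6.5-fold in WT Cold (log2 fold change 2.70, SE 0.26, adjusted p = 0.00054, limma). Against WT Cold, no regulator and none of the 39 genes passed the test in the KO-labelled libraries.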

How the data were processed

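RNA sequencing of BAT from 9 mice was analysed. Per the methods and the processing notes, the authors trimmed reads (Trimmomatic 0.36), aligned them (STAR 2.5.2b), counted unique reads in exons (featureCounts of Subread 1.5.2) and normalized with DESeq2. The notes name GRCm39, while gene positions and lengths here are from GENCODE M21 (GRCm38). The deposited tables give, for each comparison, a signal per gene and library, the authors' read count divided by a size factor, beside the authors' fold changes and p-values, which were not used. A column was assigned to a group from the tables that hold its library code, with no tie to a single mouse. The number of columns left out was 0. All values were whole multiples of 1 read within a tolerance of 0.1 (100%), and reads were recovered from them. Depth was similar across libraries, and counting error limits low genes most, such as Pex5l. Nothing used here ties a column to an animal, so p-values measure the spread between libraries.

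The main test was limma 3.58.1 (R 4.3.3) on log2(signal + 1) with a mean-variance trend. On the recovered reads, DESeq2 1.42.0 called 4948 genes at an adjusted p under 0.05 between the wild-type groups, 536 between the cold groups and 5700 between GCN2 KO Cold and WT RT. For edgeR 4.0.16 these were 4609, 44 and 5671. The fits were tested on simulated data. Levels over 9 libraries use recovered reads divided by median-of-ratios size factors. Members and gene lists were chosen with earlier results of these data known. Full values are given for members past both thresholds in a comparison and for its 4 largest rises and falls among called members with a mean of at least 50, which makes 10 genes. Abcd3, Hsd17b4, Ehhadh, Cat, Gnpat, Pex13, Ech1, Amacr and Pex11g were given in full after their values were seen, as were some genes outside the members. Some members and listed genes are counted in the totals but not reported here singly. Alternatives were the tool, scaling, pseudocount, trend, filter, groups in the fit, each library left out and marker covariates.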

Additional observations from a re-analysis of the deposited data

How the results depend on the processing

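The filter at a mean of 50 and pseudocounts of 0.1 and 10 moved no count of members by over 1.5 times. In WT Cold against WT RT (3 higher, 9 lower), the fit without a mean-variance trend gave 1 and 4 (1574 and 1947 of all genes), scaling by total reads (CPM) left 1 higher, and the skeletal muscle covariate, added after seeing the data, gave 1 (Ehhadh) and 5. DESeq2 lost Pex10. Leaving out each library gave 0 to 5 higher, 4 to 16 lower and a median of -0.14 to 0.014, with the largest counts without WT Cold C. Without any other library at most 3 rose and 5 fell, where 1376 to 1682 and 1531 to 1602 of all genes did. Without WT Cold A or without WT Cold B, the members that lost their call included Acot8, Acox3, Crot, Hsd17b4, Pex10, Pex19 and Phyh, and some of these lost it without a WT RT library. In the KO-labelled libraries against WT RT (8 and 6), CPM scaling gave 4 and 15 and a median of -0.24, and with all 3 groups in the fit 4 and 13 and -0.24. The former newly called Abcd3, Acaa1a, Decr2, Ehhadh, Gnpat, Hsd17b4, Pex11a, Pex16 and Pex26, all lower. With edgeR, Pex14 lost its call and Acaa1a and Hsd17b4 were also lower. Of the covariates, the hepatocyte markers left 5 higher and 7 lower, and the muscle markers 0 higher and 3 lower. Leaving out each library gave 5 to 8 higher and 4 to 7 lower, and Acox3, Amacr, Ech1 and Pex14 were among those that lost their call in any of them. In the KO-labelled libraries against WT Cold, DESeq2 gave 1 higher, and the median was 0.029 under both CPM fits, 0.049 with the muscle covariate, 0.085 with the hepatocyte covariate and 0.086 to 0.20 with a library left out, lowest without KO-labelled B. The sums of the muscle markers did not overlap between the KO-labelled libraries and either other group. The cause of these shifts was not tested.

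Of the 10 members given in full, none changed direction in the KO-labelled libraries against WT RT. In WT Cold against WT RT, Acaa1b and Hacl1 did so with the muscle covariate (0.027 and 0.010). Against WT Cold, where none was called, Abcd2 changed direction with DESeq2 (0.055), edgeR (0.062), the hepatocyte covariate (0.078), the muscle covariate (1.13) and without both libraries C (0.30), and ranged from -0.23 to 0.35 with a library left out. Acox3 had -0.070 under both CPM fits, -0.034 with the hepatocyte covariate and -0.049 to 0.17 with a library left out. Crot had -0.18 with the muscle covariate. Acaa1b and Hacl1 had 0.10 and 0.49 without both libraries C, and -0.48 to 0.15 and -0.34 to 0.45 with a library left out. No paired analysis was possible because the columns carry library codes and no replicate number.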

Other observations

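Further peroxisomal genes that the liver is known for were read in BAT as well. Uox, which encodes urate oxidase, had levels of 2131, 1517 and 1822 in WT RT, 711, 1275 and 3101 in WT Cold, and 1381, 2492 and 2703 in the KO-labelled libraries, and Baat, which conjugates bile acids, had 285, 200.4 and 241 in WT RT, 79.6, 172 and 443 in WT Cold, and 181, 381 and 387 in the KO-labelled libraries. Both passed the test in no comparison, and WT Cold C was the highest library in both, 3.25-fold and 3.76-fold above the geometric mean of WT Cold A and B. Pipox, an oxidase of pipecolic acid, was 3.67-fold higher there and Acox2, the oxidase of bile acid intermediates, 3.06-fold higher. Hao2, a hydroxyacid oxidase, went the other way, at 0.301 of the level in A and B, with levels of 60, 247 and 91.9 in WT RT, 311, 436 and 110.3 in WT Cold, and 327, 104 and 380.2 in the KO-labelled libraries. The mitochondrial fission factor Mff, which also acts on peroxisomes, had levels of 2357, 2248 and 2434 in WT RT, 3732, 3335 and 3080.4 in WT Cold, and 3630.2, 3505 and 4249 in the KO-labelled libraries and rose in WT Cold (log2 fold change 0.52, SE 0.088, adjusted p = 0.00477, limma). Mlycd, which degrades malonyl-CoA, had levels of 3127, 3674 and 4078 in WT RT, 6531, 6488 and 7721 in WT Cold, and 6378, 7282 and 7416 in the KO-labelled libraries and rose in WT Cold (log2 fold change 0.93, SE 0.12, adjusted p = 0.00143, limma). Ddo, which oxidizes D-aspartate, fell there, with levels of 2118, 2175 and 2319 in WT RT, 1230.2, 1061 and 1319 in WT Cold, and 1154, 1652 and 1264 in the KO-labelled libraries (log2 fold change -0.88, SE 0.10, adjusted p = 0.000966, limma).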
